A study of Bos taurus with 170 samples.

Results

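Sister blastomeres of the same Day 3 bovine embryo were compared by their level of genes first transcribed at embryonic genome activation. The cells were chosen by a score, the summed UMI of 20 genes in CPM (UMI per 1000000 UMI on genes of the cell). These are the genes of the study whose mRNA is not held by the oocyte and appears at the 8-cell stage. Of the 170 cells of the series, 123 came from Day 3, and those with 2000 or more UMI on genes were kept. Within each of the 8 embryos, cells above the median score are called high cells (57 in all), and cells at or below it low cells (61 in all). The embryo was the replicate, since blastomeres of 1 embryo share their parents and their plate.

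In cattle the first cell cycles run on RNA and protein stored in the oocyte. The stored RNA is then cleared while the embryo's own genome is switched on, and the main wave of transcription falls at the 8- to 16-cell stage. Blastomeres of an embryo divide asynchronously, so sister cells can pass through this window at different times. Transcripts absent from the oocyte, such as those of the 20 genes, therefore mark RNA made by the embryo itself.

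All embryos were produced in vitro from oocytes of slaughterhouse ovaries, by maturation with LH and FSH, fertilization with frozen-thawed sperm and culture in oviduct fluid medium. No treatment was given, and the labels name no breed. Day 3 embryos are labelled as 16-cell stage and Day 2 embryos, used only for comparison here, as 8-cell stage. The study had picked embryos by cleavage timing, removed the zona pellucida with pronase and separated the blastomeres by pipetting. RNA was measured by SCRB-Seq, which tags each captured mRNA with a unique molecular identifier (UMI), so that copies made by PCR count as 1. Day3-E1 to Day3-E4 lay on plate 1, Day3-E7 and Day3-E8 on plate 2, and Day3-E5 and Day3-E6 on plate 3. Per the study, the Day 3 embryos of plate 1 were collected earliest after fertilization, those of plate 3 later and those of plate 2 last. Plate and time of collection therefore went together. Of the cells kept, 103 carry a 6-base cell barcode that the labels also give to another cell of the series, and 52 share it with another of them. The labels do not say that such cells lay in different pools.

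The score differed widely both between embryos and between sister cells. The median cell of an embryo scored from 109.2 CPM in Day3-E1 to 2076 in Day3-E8. Single cells ran from 114.1 to 1395 CPM in Day3-E3, from 139.9 to 1388 in Day3-E6 and from 0 to 725 in Day3-E5. With its low cells summed, an embryo held 71.9 (Day3-E1) to 1787 (Day3-E4) CPM of the 20 genes, with its high cells 180 (Day3-E1) to 2653 (Day3-E8). In Day3-E1 the high cells, at 180 CPM, lay below the low cells of each other embryo. Within embryos the ratio of high to low cells ran from 1.33 in Day3-E4 to 2.503 in Day3-E1, with a median of 1.99. This ratio follows from the way the cells were chosen, so it is a description and no test was made of it.

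**Figure D1:**
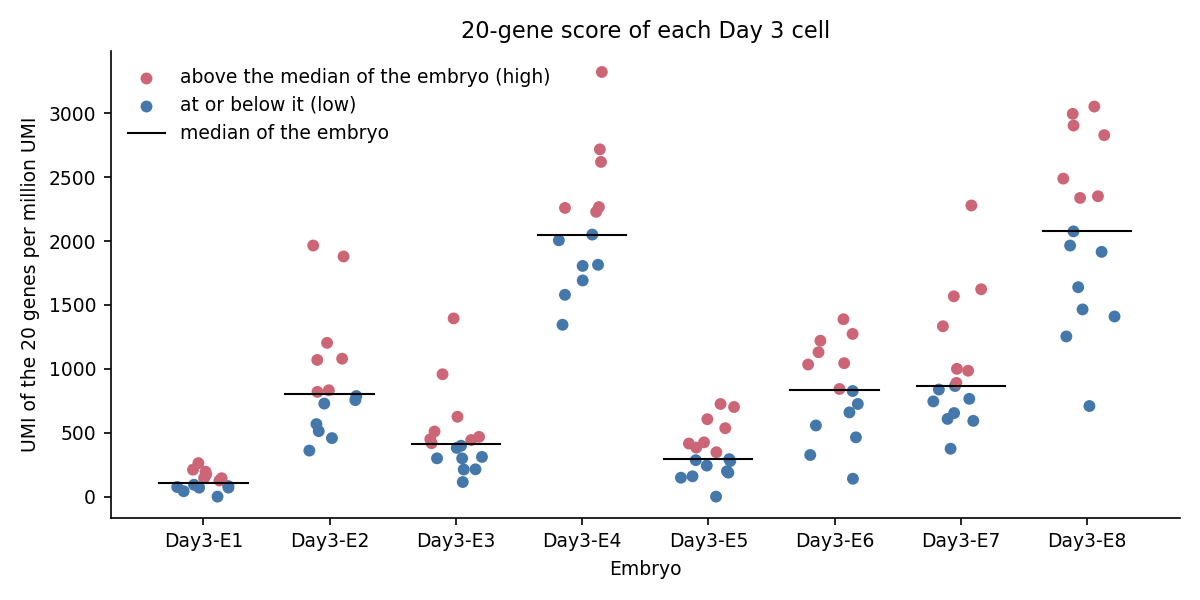
Score of each Day 3 cell kept (y axis, UMI of the 20 genes per 1000000 UMI of the cell) by embryo, with the median of the embryo as a line. Points above the line are high cells and points on or below it low cells. High and low cells adjoin at the line, and the cells of Day3-E1 all lie at or under 262 CPM.

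Many cells lay close to the line that parted them. The median low cell held 9 UMI of the 20 genes and the median high cell 25, with a range of 0 to 138, and 2 cells, of Day3-E1 and Day3-E5, held none. In 26 cells, 1 UMI more or fewer of these genes would have carried the score across the embryo's median, with that median held fixed. The median itself can shift with the cell, so fewer cells may change group. In Day3-E5 the low cell nearest to the line scored 293 and the nearest high cell 347 CPM, where 1 UMI was worth 46.2 CPM at the median depth. In Day3-E6 they scored 826 and 842, in Day3-E2 787 and 819, and in Day3-E7 866 and 890. The widest steps were those of Day3-E8, from 2076 to 2338, and Day3-E4, from 2051 to 2229.

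FOLR1, which codes for the folate receptor alpha, and DDX3Y, an RNA helicase of the Y chromosome, gave 63.98% of the 2887 UMI of the 20 genes. FOLR1 alone held 42.1% of them (1215 UMI) and had a UMI in 98 cells. Its level was 290 ± 338 CPM in low cells and 549 ± 564 in high cells (SD, n = 8 embryos), and it was higher in the high cells of 7 embryos. DDX3Y stood at 174 ± 115 CPM in low and 257 ± 124 in high cells (SD, n = 8), also higher in 7 embryos. Part of its UMI may be uncertain, because DDX3Y has a close copy on the X chromosome. ADAMTS1, a secreted metalloproteinase, held 205 UMI, and NANOG, a pluripotency factor, 157. Both had a UMI in 51 cells, and NANOG was higher in the high cells of 6 embryos (36.5 ± 43.3 against 71.6 ± 76.3 CPM; SD, n = 8).

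The other 16 genes held 12 (LRRC14) to 76 UMI (OVOL2) over all cells kept. DPPA4, a chromatin protein of pluripotent cells, was seen in 8 low and 18 high cells, and the retinoic acid binding protein CRABP1 in 13 low and 21 high cells. CNR2, a cannabinoid receptor, was seen in 9 low and 18 high cells, and PTGDR, a prostaglandin D2 receptor, in 4 low and 11 high cells. OVOL2, a zinc finger factor, stood at 25.2 ± 26.4 CPM in low and 30.96 ± 34.98 in high cells (SD, n = 8) but was higher in the high cells of 2 embryos only. The complement gene C3 (25.0 ± 19.3 against 21.17 ± 13.77 CPM), the protocadherin PCDH10 (19.5 ± 24.8 against 15.27 ± 14.86) and SH2D3A (16.132 ± 12.90 against 11.22 ± 10.19; SD, n = 8 each) had the lower mean in high cells. MESDC1, LOC508834, MAGEH1, the fructose transporter SLC2A5, GAT, NRBP2, the GDNF family receptor GFRA3 and LRRC14 were higher in the high cells of 2 to 5 embryos.

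The cells of an embryo varied in FOLR1 by more than counting alone gives. Pearson's chi-square over its degrees of freedom, which is near 1 when sister cells differ by counting error only, had a median over the 8 embryos of 3.56 for FOLR1. For DDX3Y it was 1.55, for the other 18 genes summed 2.37 and for all 20 summed 2.901. Over single genes with 100 or more UMI in the embryo, the median gene gave 1.43 (Day3-E1) to 2.65 (Day3-E7), so that scatter beyond counting was general in these cells. FOLR1 lay above that value in each embryo but Day3-E1, where it had 6 UMI (0.69).

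FOLR1 and the other 19 genes did not place the cells alike. When the cells were parted by FOLR1 alone and by the other 19 genes alone, 60 cells fell in the same group by both and 58 in opposite groups. In cells high for FOLR1, the other 19 genes summed to 586 ± 371 CPM, against 553 ± 321 in cells low for it (SD, n = 8), and were higher in 4 of 8 embryos. In cells high for the other 19 genes, FOLR1 stood at 428 ± 419 CPM, against 401 ± 473 in the low cells (SD, n = 8), and was higher in 6 of 8 embryos. The median ratio over embryos was 1.02 in the first case and 1.26 in the second. These 2 readings rest on genes that did not part the cells, and are given as values with no test.

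High and low cells held about the same number of UMI, with exceptions in single embryos. The median was 24033 UMI and 4377 genes in high cells, and 23708 UMI and 4336 genes in low cells. High cells were deeper in 5 embryos and shallower in 3. The largest gap was that of Day3-E5, with a median of 13357 UMI in its high cells and 32007 in its low cells. In Day3-E7 the medians were 24000 and 16542. ERCC spike-in RNA, added in equal amount to each well, gave a measure of RNA per cell: UMI on genes per ERCC UMI were higher in the high cells of 4 embryos and lower in 4. The lowest ratio of high to low cells was 0.69 in Day3-E3 and the highest 1.22 in Day3-E7. In Day3-E3 a single high cell with 4177 UMI on genes held 1366 ERCC UMI, 38.2% of those of its group. Without that cell the ratio of Day3-E3 was 1.09, so that 5 embryos were higher and 3 lower. Thinning to 10000 UMI kept 103 cells and left out 9 low and 6 high cells, and 78 of the 103 stayed in the same group.

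**Figure D2:**
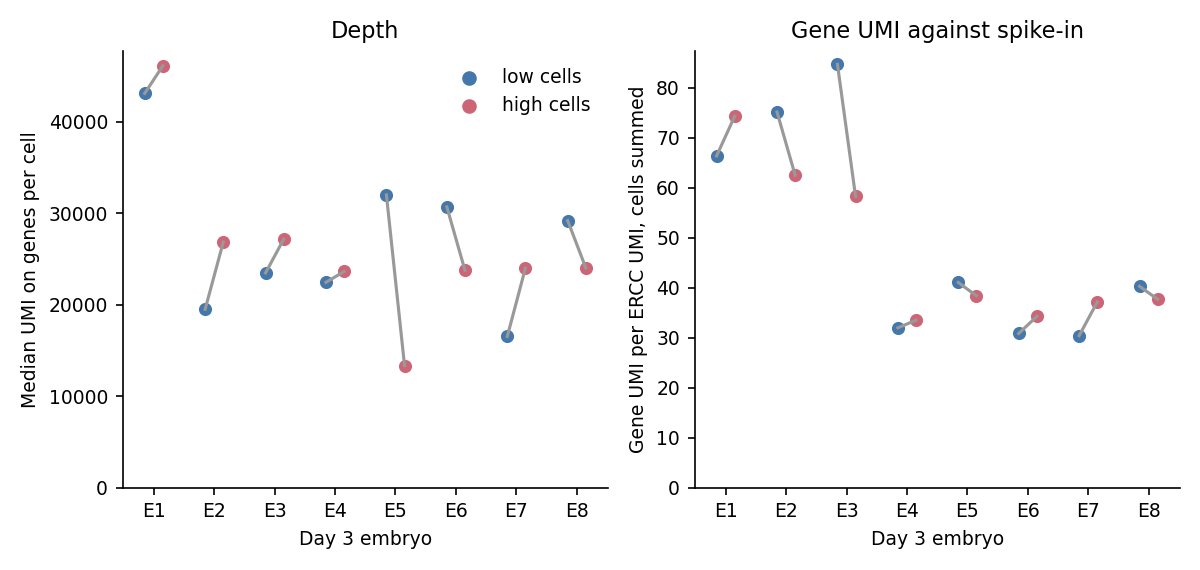
Depth (left y axis, median UMI on genes per cell) and UMI on genes per ERCC UMI with cells summed (right y axis) in low and high cells of each Day 3 embryo (x axis), joined by a line within the embryo. The 2 groups trade places from embryo to embryo, and Day3-E5 shows the largest gap in depth.

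To ask which other transcripts went with the score, the UMI of high and of low cells were summed within each embryo. The 16 sums held 124872 to 322120 UMI on genes. With the 20 genes and the spike-ins left out, 3328 of 10752 genes had enough counts to be tested by edgeR's quasi-likelihood test, with the embryo as a block. No gene passed an adjusted p of 0.05 (0% of 3328), and the lowest adjusted p was 0.708. At an unadjusted p under 0.05 stood 222 genes (6.67%), of which 141 (4.24%) were higher and 81 (2.43%) lower in high cells. DESeq2 also called 0 genes, with 105 genes at an unadjusted p under 0.05. A gene had the same sign in all 8 embryos in 17 cases for higher (0.511%) and in 25 cases for lower (0.751%).

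The differences were small and measured with some precision. The median size of the log2 fold change was 0.13, and from the 5th to the 95th percentile the values ran from -0.31 to 0.36. The median standard error was 0.18, and the median 95% interval reached 0.37 to each side, which is 1.29-fold. For 3266 of the 3328 genes (98.1%) the interval lay within a doubling and a halving. SMC1A was the one gene beyond 1 on the log2 scale. A p that misses the threshold does not show that levels were equal.

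**Figure D3:**
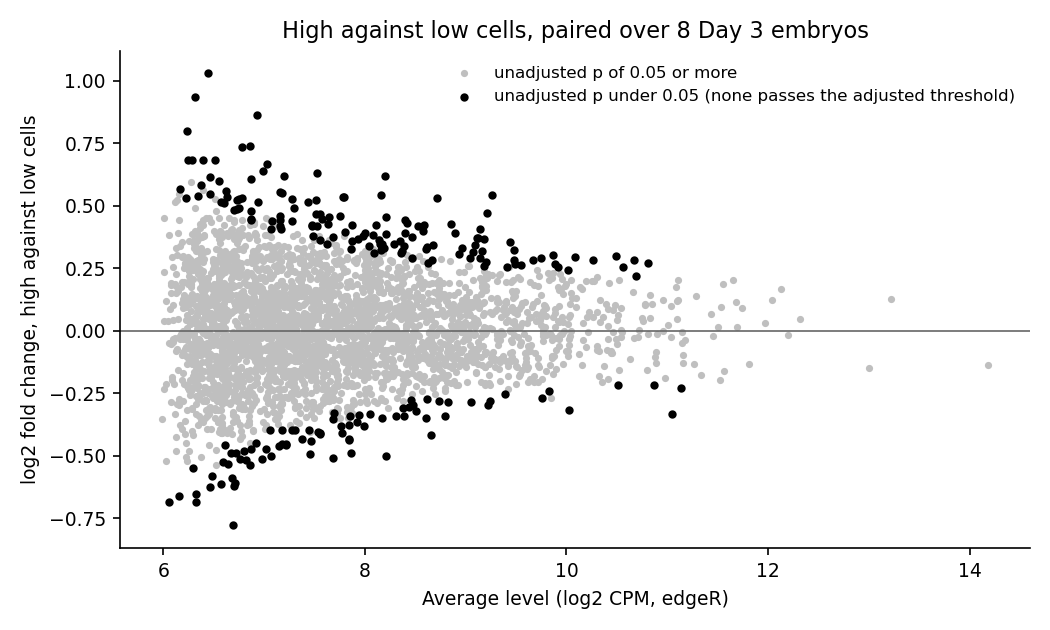
log2 fold change of high against low cells (y axis) by average level (x axis, log2 CPM) for the 3328 genes tested over 8 embryos. Black points are the 222 genes at an unadjusted p under 0.05, of which 141 lie above 0 and 81 below, and none passes the adjusted threshold.

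The 5 genes of lowest p on the higher side are named although none of them passed. RPS19BP1, a partner of a small ribosomal subunit protein, was higher in the high cells of all 8 embryos. In low cells its lowest, median and highest values were 18.0, 49.96 and 172 CPM, and in high cells 34.2, 87.4 and 315. Its log2 fold change was 0.86 (SE 0.21, adjusted p = 0.708 by edgeR's test). Parted by FOLR1 alone it was 0.47 (SE 0.22), and by the other 19 genes 0.29 (SE 0.22). SUGP1, a splicing factor, was also higher in 8 of 8 embryos, with 10.79, 57.8 and 172 CPM in low and 34.2, 116 and 228 in high cells. The ranges of both genes overlapped widely between the groups, so that the shift was one within embryos.

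SMC1A, a subunit of the cohesin ring that holds sister chromatids together, had the largest log2 fold change (1.03, SE 0.28, adjusted p = 0.724 by edgeR's test). Its low cells lay between 11.645 and 57.5 CPM and its high cells between 24.8 and 183, and it was higher in 7 of 8 embryos. MRPL17, of the large mitochondrial ribosomal subunit, went from a median of 225 to 334 CPM, and LOC782781 from 90.1 to 179. Both were higher in the high cells of 7 embryos, and for MRPL17 the step in Day3-E4 was 484 CPM, where the others ran from -27.8 to 164. As a ratio that step was not apart: MRPL17 went from 511 to 995 CPM in Day3-E4 and from 124 to 244 in Day3-E5. On Day 3 against Day 2 MRPL17 was 3.68 and LOC782781 5.36 higher on the log2 scale, where SMC1A differed by 0.03.

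On the lower side, MEST, an imprinted gene of the hydrolase family, had the lowest p. Its values were 46.5, 99.2 and 168 CPM in low cells and 16.25, 65.1 and 112 in high cells (lowest, median and highest). It was lower in the high cells of all 8 embryos, with a log2 fold change of -0.78 (SE 0.22, adjusted p = 0.724 by edgeR's test). Parted by FOLR1 alone its value was 0.17 (SE 0.25), on the other side of 0, and by the other 19 genes -0.74 (SE 0.23). MSX1, a homeobox factor, was likewise lower in 8 of 8, with a mean of 1049 ± 618 CPM in low and 853 ± 533 in high cells (SD, n = 8). CKS1B, a partner of cyclin-dependent kinases, stood at 2178 ± 1191 and 1708 ± 993 CPM and was lower in 7 embryos. The deubiquitinase USP2 (410 ± 163 against 304 ± 139 CPM) was lower in 6, and the histone chaperone DNAJC9 (297 ± 121 against 211 ± 109; SD, n = 8 each) in 7.

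**Figure D4:**
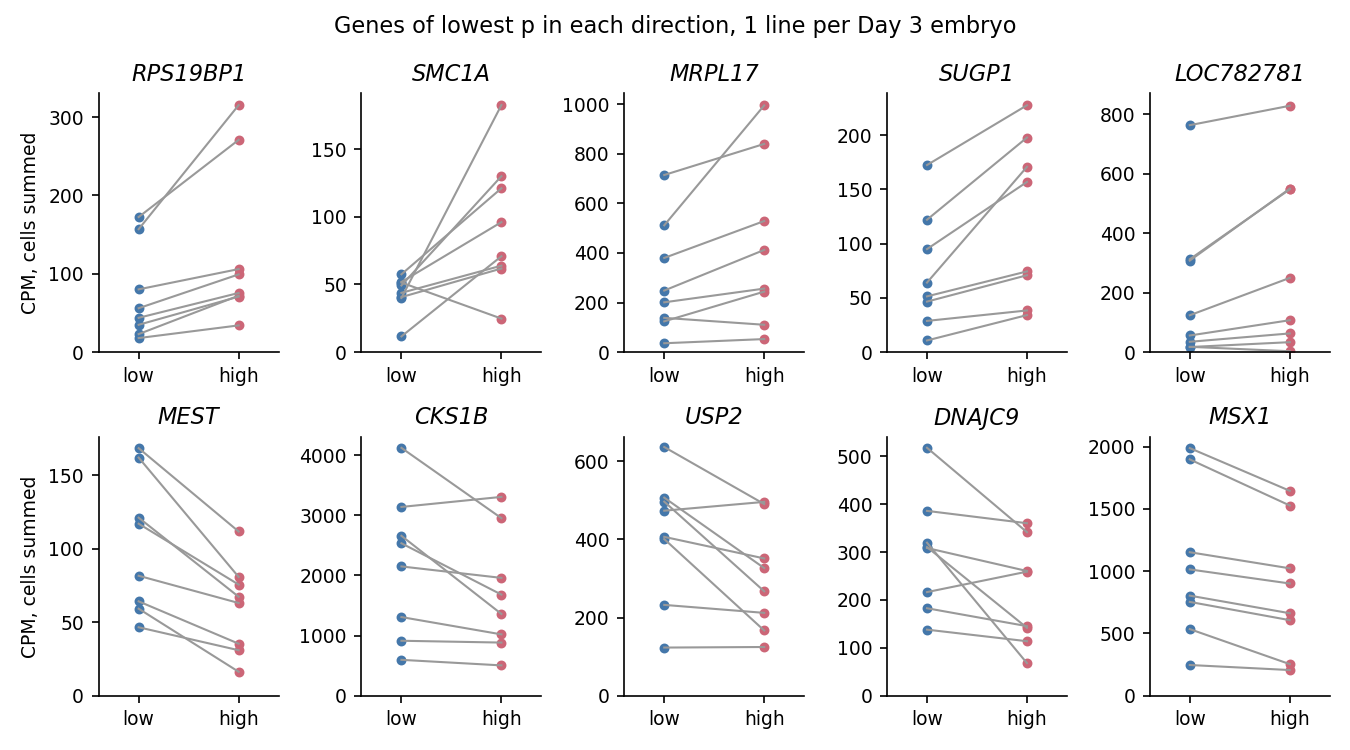
CPM (y axis, cells summed) of the 5 genes of lowest p on each side in low and high cells, with 1 line per Day 3 embryo. RPS19BP1 and SUGP1 lie higher and MEST and MSX1 lower in high cells along all 8 lines, while the spread between embryos exceeds the step within them.

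No regulator that the study follows in early development passed the test between high and low cells. KLF4, a reprogramming factor, had 104, 1398 and 2645 CPM in low cells and 295, 1530 and 2163 in high cells (lowest, median and highest). It was higher in 5 of 8 embryos, with a log2 fold change of 0.28 (SE 0.13, adjusted p = 0.724 by edgeR's test). With cells thinned to 10000 UMI the same value was 0.52 and passed the threshold at 1 of 3 seeds of the thinning (adjusted p = 0.0434 by edgeR's test), and it was 0.13 (adjusted p = 0.893) and 0.24 (adjusted p = 0.679) at the other seeds. At the first seed DDX5, an RNA helicase, was the other gene called of 1560 tested (0.43, SE 0.10, adjusted p = 0.0434 by edgeR's test); it was picked out after its value was seen. DDX5 stood at 0.20 unthinned, at 0.15 and 0.26 at the other seeds, and at -0.02 when cells were parted by FOLR1 alone. KLF5 differed by 0.10 (SE 0.24), SALL4 by 0.04 (SE 0.11) and TFAP2C, a factor of the trophectoderm, by 0.16 (SE 0.13). GRO1, a chemokine, differed by 0.29 (SE 0.25) and RHEBL1, an activator of mTOR signalling, by -0.16 (SE 0.15). All of these but KLF4 changed sign in some alternatives.

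MYC, POU5F1, CDX2, SALL1, FOSL1 and COG2 had too few counts to be tested. MYC held 116 UMI and stood at 33.7 ± 32.3 CPM in low and 39.8 ± 30.6 in high cells (SD, n = 8). POU5F1, also with 116 UMI, stood at 38.5 ± 20.4 and 31.7 ± 17.8 CPM, and CDX2, with 19 UMI, at 4.24 ± 6.78 and 7.116 ± 7.34. SALL1 (26 UMI) and FOSL1 (83 UMI) were as sparse. COG2, a subunit of a Golgi complex, stood at 41.6 ± 34.5 CPM in low and 46.3 ± 49.3 in high cells (SD, n = 8). The means of each differed by less than the SD between embryos, which does not measure the spread of the differences within embryos. Embryo by embryo, MYC and FOSL1 were higher in the high cells of 6 of 8 and POU5F1 was lower in 6, and no test was made of these genes.

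Gene lists were read by their counts and medians beside those of all genes tested, whose median log2 fold change was 0.01 and of which 51.8% lay above 0. Among the lists with 5 or more genes tested, the median farthest from 0 was that of 88 genes the study named as markers of its cell cluster K4. FOLR1 and NANOG are among those markers and were left out with the 20 genes. The study chose the list on these same cells, so it is not independent evidence of a direction. Of its 86 other genes, 70 were tested. Their median log2 fold change was 0.25, and 64 of 70 lay above 0. At an unadjusted p under 0.05 stood 16 of 70 (22.9%, against 4.24% of all genes) on the higher side and 0 on the lower. None passed the adjusted threshold.

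Summed, the K4 markers held 2036, 13063 and 39555 CPM in low cells and 2555, 16046 and 41047 in high cells (lowest, median and highest of 8 embryos). They were higher in the high cells of all 8 embryos, with a log2 ratio of 0.27 ± 0.19 (SD, n = 8). The ratio was largest in Day3-E7 (0.59) and Day3-E5 (0.46) and smallest in Day3-E6 (0.07) and Day3-E8 (0.05). Day3-E5 and Day3-E7 are also the embryos whose groups differed most in depth, in opposite directions. With cells thinned to 10000 UMI the median of the list was 0.30, 0.23 and 0.28 over 3 seeds. It was 0.25 on plate 1 and 0.24 on plates 2 and 3. Parted by FOLR1 alone, the median was 0.26. Parted by the other 19 genes it was 0.13, with 2 of 70 at an unadjusted p under 0.05 on the higher side in place of 16.

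Besides MRPL17 and LOC782781, the K4 markers of lowest p were ARMT1, a protein methyltransferase, and MTHFD1L, the mitochondrial enzyme that releases formate from the folate cycle. ARMT1 stood at 99.3 ± 86.6 CPM in low and 153 ± 139 in high cells (SD, n = 8) and was higher in 7 embryos. MTHFD1L stood at 130 ± 174 and 179 ± 167 CPM and was higher in 6, with a log2 fold change of 0.63 (SE 0.22). The 45 tested K4 markers that were in none of the other lists had a median of 0.20, with 39 above 0.

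Genes of the cytosolic ribosome leaned to the high cells in some embryos and not in others. Of 70 tested, 62 lay above 0 and 14 (20.0%, against 4.24% of all genes) stood at an unadjusted p under 0.05 on the higher side, with 0 on the lower. Their median was 0.12. Parted by the other 19 genes the median was 0.06, and 0 of 70 stood at an unadjusted p under 0.05 in either direction. RPL34 had the lowest p, with 416 ± 414 CPM in low and 587 ± 564 in high cells (SD, n = 8) and a log2 fold change of 0.47 (SE 0.14). RPL35 was higher in 8 of 8 embryos (0.36, SE 0.13), RPS3A (0.54, SE 0.19) and RPL26 (0.37, SE 0.13) in 7. RPS27 (0.43), RPL38 (0.36), RPS19 (0.33) and RPS29 (0.31), which are K4 markers too, differed in the same direction. RPL37 (0.20) and RPS4Y1 (0.16), a Y-linked gene with a close X-linked copy, changed sign on plates 2 and 3. The summed level was higher in the high cells of 5 embryos, most in Day3-E4 (log2 ratio 0.52) and Day3-E1 (0.32), and lower in those of 3. The median was 0.33 within plate 1 and -0.03 within plates 2 and 3, so the lean did not hold across plates. Plate, time of collection, embryo and pool cannot be told apart here.

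Ribosome biogenesis factors and enzymes of nucleotide synthesis had medians above that of the ribosome. Of 40 ribosome biogenesis factors, 32 lay above 0 (median 0.17), and their sum was higher in the high cells of 7 embryos. At an unadjusted p under 0.05 stood 2 of them on the higher side (5.0%, against 4.24% of all genes). These were the H/ACA snoRNP protein NHP2 (404 ± 340 against 561 ± 458 CPM; SD, n = 8) and WDR75 (223 ± 73.0 against 274 ± 79.7). Day3-E7 stood out with a log2 ratio of the sum of 0.54, where the other 7 embryos ran from -0.05 to 0.13. The 15 enzymes of purine, pyrimidine and one-carbon metabolism had a median of 0.22 and were higher, summed, in 7 embryos. With MTHFD1L, PRPS1, which makes the ribose donor of nucleotides, had the lowest p (282 ± 277 against 352 ± 268 CPM; SD, n = 8). Parted by the other 19 genes, the median of the enzymes was 0.02 and that of the biogenesis factors 0.04, below that of the ribosome (0.06). Over the 3 seeds of the thinning the biogenesis factors had medians of 0.12, 0.12 and 0.16, and the ribosome 0.10, 0.16 and 0.21. With cells thinned to 10000 UMI the enzymes had medians of 0.08, 0.22 and 0.03 over 3 seeds, with 8, 6 and 7 genes tested.

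Translation factors had a median of 0.10 over 34 genes, led by EIF2A (0.53, SE 0.22) and EIF4B (0.34, SE 0.15). EIF6 (0.32) and EIF3H (0.28) followed. Proteasome subunits had the same median of 0.10 over 24 genes, led by PSMA3 (0.49) and PSMC6 (0.56). Respiratory chain and ATP synthase genes had 0.09 over 33 genes, led by NDUFB4 (0.35), UQCRQ (0.55), NDUFA4 (0.30) and UQCR10 (0.39). Within plates 2 and 3 the median of this list was -0.12, against 0.23 within plate 1. Within plate 1 and within plates 2 and 3, translation factors had 0.13 and 0.02, and proteasome subunits 0.13 and 0.01. Translation factors had a median of 0.03, proteasome subunits 0.04 and respiratory chain genes -0.03 when cells were parted by the other 19 genes. With cells thinned to 10000 UMI the medians over 3 seeds were 0.21, 0.06 and 0.16 for translation factors. They were -0.04, 0.03 and 0.10 for proteasome subunits and -0.03, 0.07 and 0.17 for respiratory chain genes, so the last 2 lists did not keep their sign. Mitochondrial ribosomal proteins (0.03 over 34 genes) and splicing factors (0.03 over 37) lay close to all genes when unthinned. Thinned to 10000 UMI, mitochondrial ribosomal proteins had -0.06, -0.13 and 0.07 over 3 seeds, with 12, 10 and 12 genes tested. Splicing factors had 0.11, 0.05 and 0.14 at these seeds, and 0.13 when cells were parted by FOLR1 alone. MRPL16 was higher in 7 embryos (0.48), MRPS17 in 6 (0.40), and MRPS33 was lower in 7 (-0.29). Within the list of splicing factors, which does not hold SUGP1, SNRPD2 (0.33), PRPF38A (0.32), SRSF11 (0.29) and SNRPD1 (0.22) had the lowest p. SRSF11 was higher in 8 of 8 embryos.

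The cell cycle lists had medians close to that of all genes. DNA replication genes had a median of 0.03 over 25 genes, of which 3 (12%, against 4.24% of all genes) stood at an unadjusted p under 0.05 on the higher side and 0 on the lower. The median was -0.12, -0.01 and 0.07 over 3 seeds with cells thinned to 10000 UMI, and 0.20 within plates 2 and 3. The G1/S cyclin CCNE1 (90.6 ± 96.8 against 121 ± 63.6 CPM) and ORC1, of the origin recognition complex (101 ± 49.9 against 135 ± 53.0; SD, n = 8 each), had the lowest p, and ORC1 was higher in 8 embryos. Over 33 mitosis genes the median was 0.04 while the sum was lower in high cells (log2 ratio -0.06 ± 0.10; SD, n = 8), so median and sum differed in sign. AURKA, a spindle kinase, made up a large part of the sum, with 17925 ± 5324 CPM in low and 16379 ± 5515 in high cells (SD, n = 8). CDK1 (0.29, SE 0.14), KIF20A (0.22, SE 0.17) and AURKB (-0.22, SE 0.17) differed both ways.

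Maternal oocyte genes leaned the other way. Of 17 tested, 15 lay below 0, with a median of -0.13, and 2 (11.76%, against 2.43% of all genes) stood at an unadjusted p under 0.05 on the lower side. The sum was lower in the high cells of 7 embryos (log2 ratio -0.16 ± 0.14; SD, n = 8). The median was -0.10 on plate 1 and -0.28 on plates 2 and 3. Parted by the other 19 genes it was -0.03, and with cells thinned to 10000 UMI -0.06, -0.12 and -0.10 over 3 seeds, with 0, 1 and 0 genes at an unadjusted p under 0.05 on the lower side. H1FOO, the linker histone of the oocyte, stood at 887 ± 377 CPM in low and 760 ± 380 in high cells, and GDF9, an oocyte growth factor, at 525 ± 333 and 426 ± 283 (SD, n = 8 each). At the first seed of the thinning the H1FOO value was 0.01. Of the 12 markers of the study's cluster K1, again chosen on these cells, 4 were tested. Among them F3, the tissue factor of blood clotting, was lower in the high cells of 8 embryos (-0.45, SE 0.19) and TMEM128 in 5 (-0.27, SE 0.26). The 4 genes had a median of -0.21, which was 0.10 over the 6 genes that could be tested on plate 1 and -0.55 over 2 genes on plates 2 and 3. Without Day3-E1 (-0.55), or without Day3-E3 (-0.43), 1 gene of the list had enough counts to be tested. F3 stood at -0.06 (SE 0.20), and the median of the 4 genes at 0.01, when cells were parted by the other 19 genes.

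Markers of later lineages and of other cells were sparse. Trophectoderm genes had 1 gene tested, GATA2 (-0.04, SE 0.17), and primitive endoderm genes 2, LAMC1 (-0.08, SE 0.20) and PDGFRA (-0.08, SE 0.23). Stress and death genes had a median of 0.05 over 15 genes, with GADD45A at 0.17 (SE 0.12) and CHAC1 at -0.40 (SE 0.22). Of 24 cumulus and granulosa cell markers, 18 had a row in the table. Over all Day 3 cells kept, CYP11A1 and HSD3B1, of steroid synthesis, held 1 and 5 UMI, and FOXL2, a factor of granulosa cells, 2. INHA held 1 UMI, INHBA, which codes for an inhibin and activin subunit, 79, and AMH 10. The genes of the expanding cumulus PTGS2, VCAN and TNFAIP6 held 43, 38 and 35 UMI. The 2 genes tested, HAS2 and SERPINE2, had a median of -0.28. Parted by the other 19 genes it was 0.05, on the other side of 0. With cells thinned to 10000 UMI it was 0.02 and 0.36, each over 1 gene, and -0.03 over 2 genes at the 3 seeds. The list summed to 449 CPM in low and 380 in high cells and was lower in the high cells of 7 embryos. Its most abundant gene was HAS2 (638 UMI), followed by SERPINE2 (468 UMI; 169 ± 69.8 against 127 ± 49.7 CPM; SD, n = 8).

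**Figure D5:**
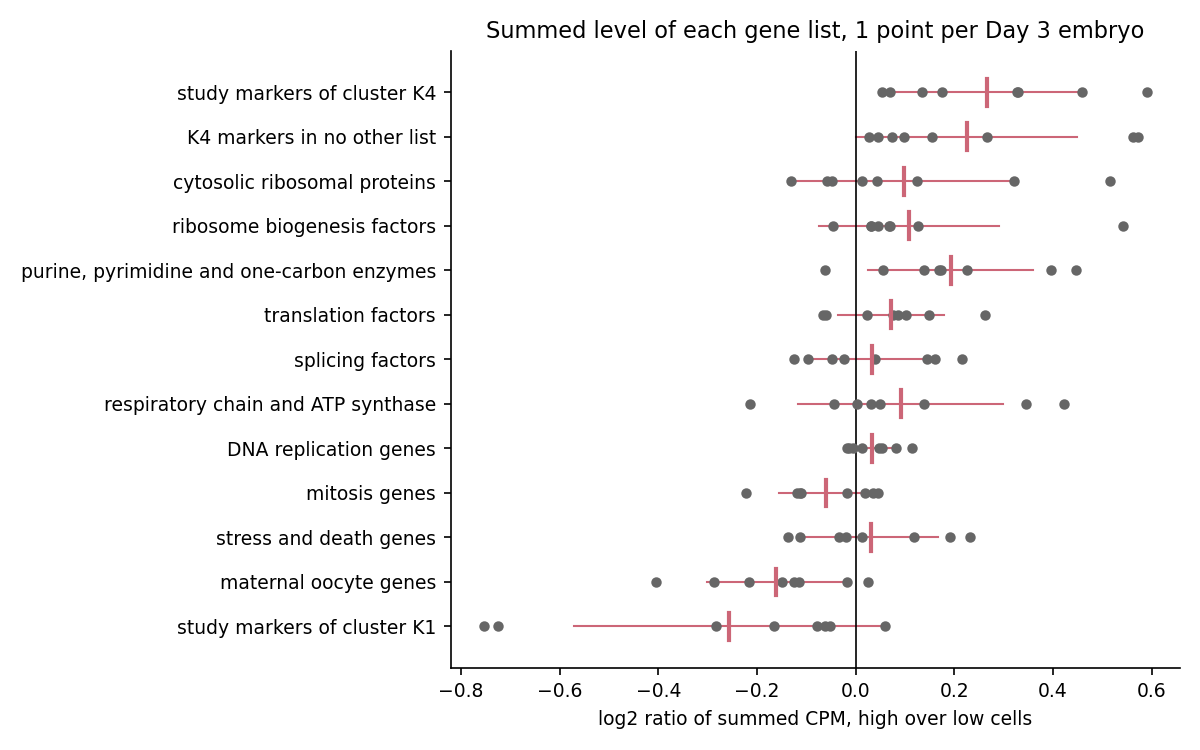
log2 ratio of the summed CPM of each list, high over low cells (x axis), with 1 grey point per Day 3 embryo, the mean as a red bar and 1 SD as a red line. All 8 points of the K4 markers lie above 0, 7 of 8 of the maternal oocyte genes lie below it, and the ribosomal proteins spread to both sides.

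The step between sister cells was set beside the step between days, which the choice of cells did not use. Between the 8 Day 3 and 6 Day 2 embryos, edgeR's test called 1709 of 5271 genes (32.4%), with 1114 higher and 595 lower on Day 3. Plate 1 held Day 3 embryos only, and the Day 2 embryos lay on plate 2 (2 embryos) and plate 3 (4 embryos), so day and plate were confounded in part. On plates 2 and 3 alone, with the plate in the model, 2044 of 5405 genes (37.8%) were called between 4 Day 3 and 6 Day 2 embryos. All 1678 of the 1709 genes that could be tested there had the same sign, and 1492 were called again. Of the genes higher on Day 3, 938 were also tested between high and low cells. Their median log2 fold change between high and low cells was 0.14 and 741 of 938 (79.0%) lay above 0. At an unadjusted p under 0.05 stood 106 on the higher side (11.301%, against 4.24% of all genes) and 2 on the lower. Of the genes lower on Day 3, 350 were tested. Their median was -0.07, 110 (31.4%) lay above 0, and 13 stood at an unadjusted p under 0.05 on the lower side (3.71%, against 2.43% of all genes), with 2 on the higher. The 2037 genes not called between the days had a median of -0.03, with 42.7% above 0.

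Summed, the genes higher on Day 3 were higher in the high cells of 7 of 8 embryos, with a log2 ratio of 0.10 ± 0.09 (SD, n = 8). The exception was Day3-E8 (-0.02). The genes lower on Day 3 were lower in the high cells of 7 embryos (-0.10 ± 0.10), again except in Day3-E8 (0.03). Between the days the medians of the same lists were 1.65 and -0.88, on the values that had chosen their genes. The median size of the log2 fold change was 0.50 over the 5271 genes tested between days. It was 0.13 over the 3328 tested between high and low cells, where the median standard error was 0.18. The 2 sets of genes differ. The genes higher on Day 3 that were in none of the lists had a median of 0.12 over 721 genes. The lists of called genes were drawn up from sums that hold the same Day 3 cells, and no test was made of them. Their medians held their sign with cells thinned to 10000 UMI, within plate 1 and within plates 2 and 3. Parted by the other 19 genes without FOLR1, they were 0.09 and -0.04. With the lists drawn up on plates 2 and 3 alone, the medians between high and low cells were 0.12 over 900 genes and -0.06 over 557.

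Day 2 cells were parted in the same way. Of 43 Day 2 cells, 20 were above and 23 at or below the median of their embryo. The summed score was 46.0 to 151 CPM in low and 119 to 179 in high Day 2 cells, and the ratio ran from 1.18 in Day2-E1 to 3.68 in Day2-E5. The low cells of Day2-E5 held 9 UMI of the 20 genes in all, so that this parting rested on few counts. No gene of 4326 passed the adjusted threshold (edgeR, lowest adjusted p = 0.933), and 195 (4.51%) stood at an unadjusted p under 0.05. The genes higher on Day 3 had a median of -0.01 between high and low Day 2 cells (702 tested) and the K4 markers -0.02 (20 tested). All genes tested had -0.0033 there. The difference between the days was tested directly as an interaction. It called 0 of 4664 genes by edgeR's test (lowest adjusted p = 0.249), with 198 (4.25%) at an unadjusted p under 0.05. Most K4 markers had too few UMI on Day 2 to be tested there, and no test was made of the difference between the days for a list.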

How the data were processed

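Per the labels and the methods of the study, the authors mapped reads to Bos tau7 and the ERCC sequences with STAR 2.5.2b, and counted UMI with the Drop-seq pipeline from a 6-base cell barcode and a 10-base UMI. The deposited values used are whole-number UMI counts of 10772 genes and 92 ERCC rows in 170 cells. The normalised table was not used. Scores were computed per cell with ERCC left out, ties at the median went to the low cells, and UMI were summed per embryo and group. Genes were filtered with filterByExpr, scaled by TMM and tested with edgeR 4.0.16 (quasi-likelihood test, embryo as block, Benjamini-Hochberg adjustment over all genes tested). Standard errors are the log2 fold change over the root of F. The test was tested on simulated data. DESeq2 1.42.0, thinning to 10000 UMI and other scores were alternatives. The embryo number pairs high and low cells, since both come from 1 embryo. The members and lists were chosen with earlier results of these data known. Named genes were the 5 of lowest p per direction where none was called, the genes the study names, and the 2 to 4 of lowest p in each list. CPM use all UMI on genes. For high against low Day 3 cells, intervals and p-values cover the spread of the difference within embryos over these 8 embryos. The spread of levels between embryos is taken up by the block.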

Additional observations from a re-analysis of the deposited data

Results flagged for a closer look

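In 31 values examined over the 8 embryos (20-gene score, depth, UMI per ERCC UMI, the sums of 18 lists and 10 genes), 2 had an embryo far from the others. Chance gives about 1 in 20 of such values, so 2 of 31 is close to what chance gives. The summed ribosome biogenesis factors had a log2 ratio of high over low cells of 0.54 in Day3-E7, where the other embryos ran from -0.05 to 0.13. MRPL17 was 484 CPM higher in high than in low cells of Day3-E4, where the differences in the other embryos ran from -27.8 to 164 CPM. This holds in CPM only: the ratio in Day3-E4 (511 to 995 CPM) was close to that in Day3-E5 (124 to 244 CPM).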

How the results depend on the processing

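Of 22 alternatives, 21 left 0 genes called, and thinning to 10000 UMI called 2 (KLF4 and DDX5) at 1 seed and 0 at the other 2 seeds. With each embryo left out in turn the count of calls was 0 to 0, with 166 to 254 genes at an unadjusted p under 0.05. The lowest adjusted p among these was 0.111, without Day3-E6. Without the embryo as a block, 0 genes were called and 6 stood at an unadjusted p under 0.05, against 222 with the paired fit. DESeq2 gave 105 such genes (3.155%, against 6.67%), no filter on low counts 367 of 10236 (3.59%), and the score from the other 19 genes 143 (4.33%). The thinning gave 151 of 1560 (9.68%) at the first seed, and 92 of 1432 (6.42%) and 115 of 1633 (7.04%) at the others, where fewer genes were tested. The cause of the other shifts was not tested. In 21 of 22 alternatives more of these genes were higher than lower in high cells, the exception being the fit without the block (3 and 3). With each embryo left out, the K4 median ran from 0.19 to 0.31. Medians that moved by over 1.5 times were those of cytosolic ribosomal proteins (0.066 without Day3-E4), ribosome biogenesis (0.089 without Day3-E7), translation factors (0.063 without Day3-E7) and proteasome subunits (0.17, 0.19 and 0.047 without Day3-E1, Day3-E3 and Day3-E8). Those of the respiratory chain (0.059 to 0.17) and of K1 (-0.55 to -0.070) moved with several embryos. Medians within 0.1 of 0 moved as much, and those of mitochondrial ribosomal proteins, splicing, DNA replication and mitosis genes turned sign (lowest -0.019, -0.016, -0.0057 and -0.0017). So did that of pluripotency and early embryo transcription factors (-0.023 to 0.16), which was 0.07 over 6 genes in the main fit. The medians of trophectoderm genes (-0.10 to 0.0062) and primitive endoderm genes (-0.17 to 0.019) turned sign too. The interaction with the day called 0 genes without a filter and without TMM.

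No call was made with the opposite sign. DDX5 turned to -0.018 with the score from FOLR1 alone and to -0.061 with the number of the 20 genes detected. The 5 genes of lowest p on each side held their direction in 197 of 199 refits. The exceptions were MEST with the score from FOLR1 alone (0.17) and USP2 with the score from the number of the 20 genes detected (0.020). The size of their values moved with the score. Parted by the other 19 genes, SUGP1 went from 0.74 to 0.27, MRPL17 from 0.53 to 0.17 and LOC782781 from 0.62 to 0.18. DNAJC9 went from -0.50 to -0.022 with that score and to -0.077 with FOLR1 alone. With FOLR1 alone USP2 went from -0.41 to -0.051 and CKS1B from -0.33 to -0.097, while MRPL17 stood at 0.63. SMC1A stood at 0.80 with either score. Uncalled values that turned sign with thinning to 10000 UMI were those of RHEBL1 (0.026), RPL37 (-0.025), NDUFA4 (-0.031), H1FOO (0.0067) and HAS2 (0.023). At the second seed they were EIF3H (-0.018), WDR75 (-0.014), AURKB (0.014) and HAS2 (0.36), and at the last seed SALL4 (-0.0093), RHEBL1 (0.031), AURKB (0.16) and HAS2 (0.086). With the score from FOLR1 alone they were also SALL4 (-0.0026), RHEBL1 (0.052), UQCRQ (-0.19) and GATA2 (0.20). With the score from the other 19 genes they were KLF5 (-0.015), RHEBL1 (0.066), GRO1 (-0.10), RPL38 (-0.028), NDUFA4 (-0.027), KIF20A (-0.0077), LAMC1 (0.094), HAS2 (0.19) and TMEM128 (0.090). With the number of genes detected they were RPS29 (-0.046), MRPS17 (-0.11), PSMA3 (-0.10), EIF6 (-0.0058), ORC1 (-0.0085), AURKB (0.11), TFAP2C (-0.074), LAMC1 (0.17) and HAS2 (0.077). With the upper against the lower tertile they were RHEBL1 (0.020), GATA2 (0.019), LAMC1 (0.0015), PDGFRA (0.061) and HAS2 (0.054). On plate 1 alone they were KLF5 (-0.082), TFAP2C (-0.070) and GADD45A (-0.12), and on plates 2 and 3 alone SALL4 (-0.021), RPS4Y1 (-0.16), RPL37 (-0.24) and PDGFRA (0.0041). With each embryo left out, KLF5 ran from -0.039 to 0.24, SALL4 from -0.0064 to 0.093, GATA2 from -0.10 to 0.0062, LAMC1 from -0.14 to 0.059 and PDGFRA from -0.20 to 0.087. Among genes that held their sign, KLF4 ran from 0.17 to 0.40, GRO1 from 0.053 to 0.45 and RHEBL1 from -0.36 to -0.053. MRPS17 ran from 0.20 to 0.56, MRPS33 from -0.34 to -0.19, NDUFA4 from 0.15 to 0.46 and SNRPD1 from 0.11 to 0.28. CHAC1 ran from -0.54 to -0.23, NHP2 from 0.21 to 0.47, RPL35 from 0.22 to 0.43 and CCNE1 from 0.43 to 1.06. Gene values under DESeq2, no filter, the other scores, cells with 5000 or more UMI, tertiles and the further seeds were added after seeing the data. So were list medians under plates, the other scores and the further seeds, the lists of genes called between the days, the days on plates 2 and 3, and the ratio to spike-ins without 1 cell. Few UMI per embryo and group limited the tests to 3328 genes.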
